A study of Mus musculus with 13 samples.

Results

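The alpha-arrestins followed here are Txnip, which encodes thioredoxin-interacting protein, and Arrdc1, Arrdc2, Arrdc3 and Arrdc4, which encode arrestin domain-containing proteins. They are 5 of the 35498 genes whose reads could be summed in the 13 libraries, and all 5 passed the filter on low counts. The members were listed by name, and Txnip was chosen by its lower level in LacZ line 12 than in LacZ line 10, so that difference is given below as a description with no test. The libraries are poly(A) mRNA of mouse melanoma cell lines grown in culture, and the series concerns soluble adenylyl cyclase, a cyclic AMP-producing enzyme encoded by Adcy10, placed in set parts of the cell under doxycycline. NLS t0 holds NLS lines without doxycycline and has the compartment label none, and NLS t6 and NLS t48 hold the same lines after 6 h and 48 h of doxycycline with the compartment label nuclear; each NLS group has 1 library of line 6, 1 of line 7 and 1 of line 16. LacZ t0 and LacZ t48 hold LacZ lines 10 and 12 without doxycycline and after 48 h of it. Both LacZ t48 libraries are labelled nuclear, which their titles contradict, and were analysed as LacZ. All LacZ t48, NLS t6 and NLS t48 libraries thus share doxycycline, and the t0 libraries share its absence. The sources used here do not give the strain, the parental line or whether a line number stands for 1 clone. Nothing in the labels places the libraries in separate cultures beyond the line numbers, and p-values therefore cover only the spread among the libraries at hand, which may be technical.

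Alpha-arrestins share the arrestin fold and carry short proline and tyrosine motifs in their tails that recruit ubiquitin ligases of the NEDD4 family. Through these ligases they lead receptors and transporters at the plasma membrane into endocytosis. Txnip is the exception in also binding thioredoxin, the small protein that keeps cysteines reduced, and it slows glucose uptake through the transporters encoded by Slc2a1 and Slc2a4. Txnip and Arrdc4 are known targets of the glucose-sensing factors MondoA and ChREBP with their partner Mlx. Arrdc3 is known for directing the beta-adrenergic receptor and integrin beta chains to ubiquitination, and Arrdc1 for budding of small vesicles together with Tsg101.

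The upstream sequences of Txnip and Arrdc4, which both rose between NLS t6 and NLS t48, are shown with that of Arrdc3, which fell. Each is the 250 bases before the RefSeq start on GRCm38.p6, written 5′ to 3′ on the gene's own strand. Capitals mark a pair of CACGNG elements 5 bases apart in Txnip, the form of a carbohydrate response element, and the E-box CACGTG in Arrdc4. The Arrdc3 window, 1 of 3 RefSeq windows of that gene, holds neither and has no capitals.
Txnip, chr3:96557707-96557956, plus strand: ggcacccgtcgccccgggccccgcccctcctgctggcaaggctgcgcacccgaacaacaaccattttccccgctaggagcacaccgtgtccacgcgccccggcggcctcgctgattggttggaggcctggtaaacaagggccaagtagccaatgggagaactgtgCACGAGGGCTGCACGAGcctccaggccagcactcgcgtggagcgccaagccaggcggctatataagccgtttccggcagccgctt
Arrdc4, chr7:68749239-68749488, minus strand: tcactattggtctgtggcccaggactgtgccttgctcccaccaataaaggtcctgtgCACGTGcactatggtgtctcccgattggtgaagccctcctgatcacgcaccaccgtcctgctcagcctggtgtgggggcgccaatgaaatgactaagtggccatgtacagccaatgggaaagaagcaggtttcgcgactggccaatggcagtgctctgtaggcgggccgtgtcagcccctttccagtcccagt
Arrdc3, chr13:80883134-80883383, plus strand: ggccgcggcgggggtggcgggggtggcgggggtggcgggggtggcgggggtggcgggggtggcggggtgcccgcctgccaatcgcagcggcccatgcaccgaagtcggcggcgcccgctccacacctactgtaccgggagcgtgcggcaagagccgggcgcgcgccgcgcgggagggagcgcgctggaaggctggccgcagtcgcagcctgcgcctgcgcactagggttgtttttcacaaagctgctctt
The paired elements of Txnip lay 85 to 69 bases before the start. Of 32851 RefSeq mouse promoter windows, 15 held such a pair in the 250 upstream bases on either strand, or 0.0457%. The E-box of Arrdc4 lay 193 to 188 bases before the start, and 6.02% of windows held one. A CCAAT box, found in 33.8% of windows, was present upstream of 4 members on either strand, 6 times for Arrdc4, 3 times for Arrdc2, 2 times for Txnip and 1 time in the Arrdc3 window shown. The FOXO core GTAAACA occurred upstream of Txnip, 121 to 115 bases before the start, and in 3.17% of windows. The cAMP response element TGACGTCA, present in 1.55% of upstream windows, was not among the letters of any member's window, and its core TGACG (17.8% of windows) occurred in 1 alternative window of Arrdc3. These are matches of letters in a window, with no measurement of binding.

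The libraries were of similar depth, with 18512887 to 22584628 estimated reads. Of 7 melanocyte markers, 6 stayed under 1 CPM (counts scaled to library size, with TMM normalisation) in every library, all but Mitf, and the summed markers reached 3.24 to 5.86 CPM. The defining pigment genes of the labelled melanoma origin were thus at or near 0. The 7 fibroblast and mesenchyme markers summed to 9999 to 12166 CPM in NLS t0, 7792 to 9439 in NLS t6, 15978 to 17071 in NLS t48, 8070 to 8219 in LacZ t0 and 7129 to 7517 in LacZ t48. The sum was thus highest in NLS t48, as Txnip and Arrdc4 were, but it came mostly from the collagen genes Col1a1, Col1a2 and Col3a1. Pdgfra went from 170 to 165, 256 to 205 and 140 to 131 CPM between t0 and t48 in NLS lines 6, 7 and 16. Pdgfrb lay at 192 to 194 CPM in NLS t48 and reached 221 CPM in NLS t6. Dcn lay at 3.13 to 6.49 CPM in NLS t48 and 12.8 to 18.5 CPM in the LacZ lines, and Thy1 stayed under 1 CPM. The part of these genes in the results was not tested. Adcy10 did not follow the time labels. It lay at 339 to 371 CPM in line 6, 181 to 200 CPM in line 7 and 0.67 to 1.22 CPM in line 16 at every time, and at 0 to 0.167 CPM in the LacZ lines. In lines 6 and 7 it was thus already at its full level at t0, and in line 16 it was near absent under doxycycline. The Adcy10 levels thus go against the time labels of lines 6 and 7 and the NLS label of line 16, and NLS, t0, t6 and t48 are used below as what the libraries are labelled.

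Levels of different genes were first set against each other in TPM, a unit that corrects for transcript length. Txnip had the highest median over the 13 libraries at 18.7 TPM (lowest 9.40, highest 40.6). Arrdc1 followed with a median of 14.4 TPM (12.4 to 17.7), Arrdc3 with 12.9 (6.92 to 23.5), Arrdc4 with 6.76 (3.78 to 13.7) and Arrdc2 with 4.34 (3.06 to 6.03). Txnip exceeded Arrdc4 and Arrdc2 in 13 of 13 libraries but Arrdc1 and Arrdc3 in 9 each. The first 3 in this order overlapped, and Arrdc1, Txnip or Arrdc3 came first depending on the library. In all 3 NLS t48 libraries Txnip came first, and in both LacZ t48 libraries Arrdc1 did. On the CPM scale the highest library of a gene exceeded its lowest by 4.38-fold for Txnip, 4.03-fold for Arrdc4, 3.44-fold for Arrdc3, 1.80-fold for Arrdc2 and 1.44-fold for Arrdc1. Thus 3 members varied by 3.44-fold or more and 2 by 1.80-fold or less, with no range over all genes computed as background. The lowest Txnip library was of LacZ line 12, whose low Txnip chose that gene. The range of Txnip is therefore not separate from that choice.

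Transcript shares differed between the members. For Txnip (ENSMUSG00000038393, GRCm38 chromosome 3, 96557957 to 96561883, plus strand), Txnip-202 carried a median of 62.8% of the gene's reads and Txnip-201 36.8%. These 2 transcripts are 2827 and 2795 bases long, and the split between them ranged from 40.2 to 79.7% for Txnip-202 over libraries, so only the sum is used. Arrdc4-201 carried a median of 70.5% of Arrdc4 reads (ENSMUSG00000042659, chromosome 7, 68736995 to 68749241, minus strand). Arrdc3-201 carried 89.0% (ENSMUSG00000074794, chromosome 13, 80883384 to 80896042, plus strand) and Arrdc1-201 86.4% (ENSMUSG00000026972, chromosome 2, 24925352 to 24935252, minus strand). Arrdc2 (ENSMUSG00000002910, chromosome 8, 70835129 to 70839720, minus strand) had 46 to 91 reads a library. The protein-coding Arrdc2-201 carried a median of 73.9% of them but ranged from 0 to 91.3%. In the NLS t6 library of line 6 it was assigned 0 reads, and the retained-intron transcript Arrdc2-206 was assigned 71.9%. The Arrdc2 level is therefore that of all its transcripts and not of its coding mRNA.

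Txnip was higher at NLS t48 than at NLS t6, by nearly the same ratio in each line. In NLS t0 it stood at 48.5 CPM in line 6, 28.6 in line 7 and 47.0 in line 16. In NLS t6 the same lines gave 43.3, 25.6 and 34.8 CPM, each below its own t0 value. In NLS t48 they gave 77.5, 53.0 and 71.4 CPM, so that every t48 library exceeded every t0 and t6 library of the NLS lines. For this separation and those given below for other members, the share of all genes separated likewise was not counted. As in any bulk RNA sample, more cells with the transcript and more transcript per cell cannot be told apart. The ratio of t48 to t6 within a line was 1.79 for line 6, 2.07 for line 7 and 2.05 for line 16. The LacZ libraries had 30.9 CPM in line 10 and 18.1 in line 12 at t0, and 24.7 and 17.7 CPM at t48. The lowest NLS t48 library thus stood above all 4 LacZ libraries, while NLS t0 and LacZ t0 overlapped through line 7 and line 10. The low LacZ levels of line 12 took part in the choice of Txnip.

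**Figure D1:**
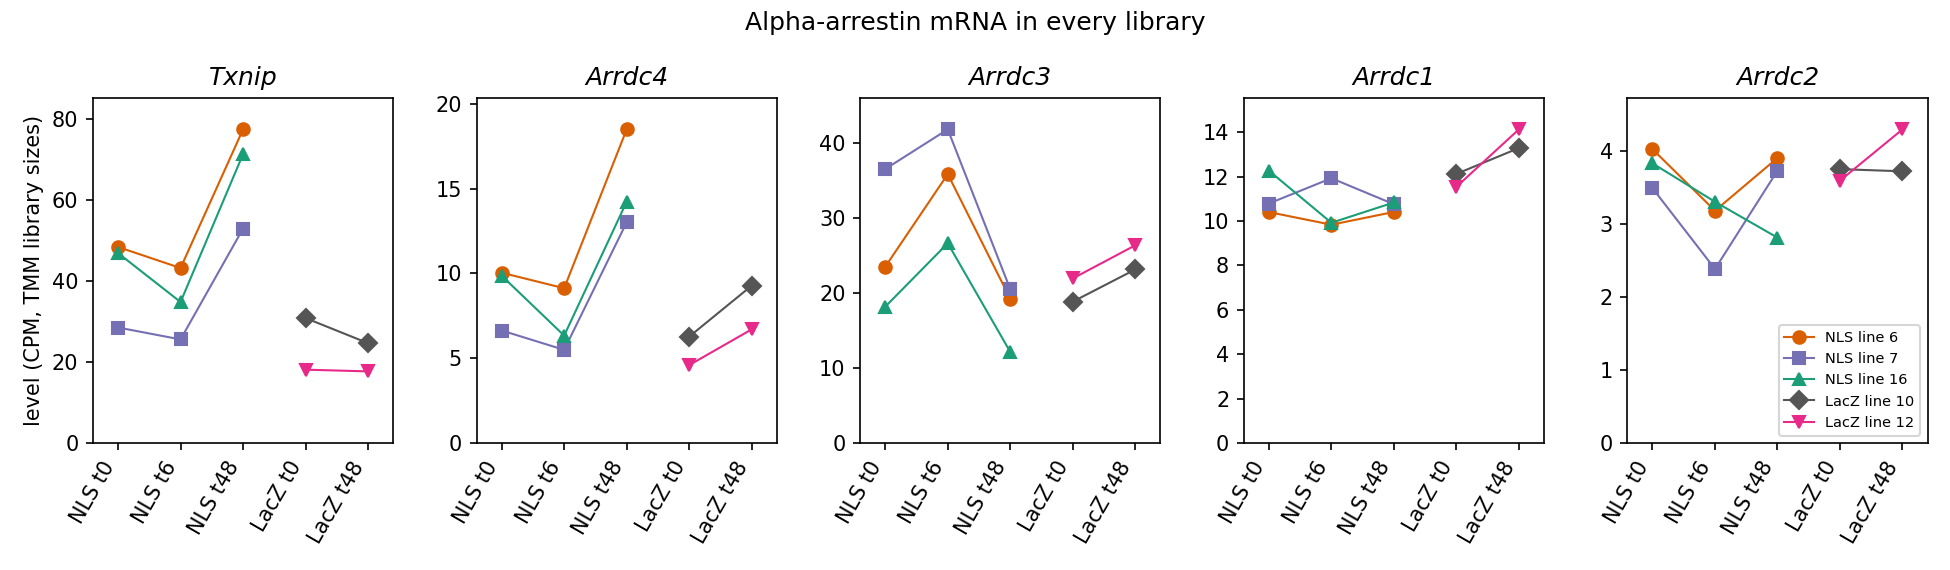
Level of each alpha-arrestin (vertical axis, CPM on TMM library sizes, from 0 and scaled per gene) in each of the 13 libraries by group (horizontal axis), with lines joining the libraries of 1 cell line. Txnip and Arrdc4 are highest in the 3 NLS t48 libraries, Arrdc3 peaks at NLS t6 in each NLS line, and Arrdc1 stays between 9.83 and 14.1 CPM.

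Arrdc4, an adaptor with the same fold and a further target of MondoA, had the same order of NLS groups as Txnip. It stood at 10.0, 6.64 and 9.87 CPM in lines 6, 7 and 16 of NLS t0, at 9.13, 5.50 and 6.34 CPM in NLS t6 and at 18.5, 13.02 and 14.2 CPM in NLS t48. As for Txnip, all 3 NLS t48 libraries lay above the other NLS libraries and line 7 was the lowest of the lines at each time. The t48 to t6 ratio was 2.03 for line 6, 2.37 for line 7 and 2.25 for line 16. In the LacZ lines Arrdc4 went from 6.27 to 9.28 CPM in line 10 and from 4.59 to 6.70 CPM in line 12, ratios of 1.48 and 1.46. The Arrdc4 level was thus higher at t48 than at t0 in all 5 lines, whereas Txnip was higher in the 3 NLS lines and lower in both LacZ lines.

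Arrdc3, an adaptor for receptor ubiquitination, had the reverse order of NLS groups. It stood at 23.5, 36.6 and 18.2 CPM in lines 6, 7 and 16 of NLS t0, at 35.9, 41.9 and 26.7 CPM in NLS t6 and at 19.3, 20.5 and 12.2 CPM in NLS t48. Each line was highest at t6 and lowest at t48, with t48 to t6 ratios of 0.536, 0.490 and 0.456, and the t48 and t6 libraries did not overlap. In the LacZ lines it was slightly higher at t48, at 18.9 and 23.2 CPM in line 10 and 21.97 and 26.4 CPM in line 12.

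Arrdc1, the vesicle-budding member, and Arrdc2 varied least. Arrdc1 lay at 10.4, 10.8 and 12.3 CPM in NLS t0, 9.83, 11.9 and 9.92 CPM in NLS t6, and 10.4, 10.8 and 10.8 CPM in NLS t48. Its LacZ values were 12.1 and 11.5 CPM at t0 and 13.3 and 14.1 CPM at t48. Every Arrdc1 level in LacZ t48 was above the highest NLS level. Arrdc2 ranged from 2.38 CPM, in line 7 of NLS t6, to 4.30 CPM, in line 12 of LacZ t48. Its NLS t6 libraries (2.38 to 3.31 CPM) all lay below its NLS t0 libraries (3.49 to 4.03 CPM). In TPM the order of the means was the reverse, 5.30 in NLS t6 and 4.47 in NLS t0, and the libraries overlapped. The direction of this Arrdc2 difference thus depended on the unit. In CPM the NLS t48 libraries (2.81 to 3.91) overlapped both groups.

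The time labels were compared with the edgeR quasi-likelihood test over all 13044 genes tested, with Benjamini-Hochberg adjustment and a call at an adjusted p below 0.05. Between NLS t48 and NLS t6, where 28.2% of all genes were called, 3 of the 5 alpha-arrestins were called: Arrdc4 and Txnip rose and Arrdc3 fell. The log2 fold change of Arrdc4 was 1.12 (SE 0.23, edgeR adjusted p = 0.00278), that of Txnip 0.96 (SE 0.29, adjusted p = 0.0345) and that of Arrdc3 -1.001 (SE 0.28, adjusted p = 0.0231). Arrdc1 (0.02) and Arrdc2 (0.24, adjusted p = 0.351) were not called. The Arrdc4 call held in all 9 leave-out fits (each NLS library or line in turn), with the adjusted p at most 0.0361. Of these 9 fits, 6 lost the Txnip call, with edgeR adjusted p up to 0.205 without line 16, and 4 lost the Arrdc3 call, up to 0.122 without line 6. Without the filter on low counts both were lost as well (edgeR adjusted p = 0.0814 and 0.0606).

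Since the line number marks the same cell line at each time, the fit was repeated with the cell line as a block, which removes the standing difference between lines. For NLS t48 against NLS t6 the same 3 genes were called, Txnip with an edgeR adjusted p of 5.38e-09, Arrdc3 with 1.12e-07 and Arrdc4 with 1.95e-07, against 41.2% of all genes called in that fit. The standard error of the Txnip difference went from 0.29 to 0.07 on the log2 scale with the block. Both fits take their spread from all 13 libraries. The difference between the LacZ lines that chose Txnip is part of the first spread and is removed by the block. The drop is thus not separate from that choice. These 3 calls held without line 6, without line 7 and without line 16.

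Between NLS t48 and NLS t0, 1 of 5 alpha-arrestins was called against 26.1% of all genes. Arrdc4 rose, with a log2 fold change of 0.79 (SE 0.22, edgeR adjusted p = 0.0207). Of 9 leave-out fits 4 lost that call, with edgeR adjusted p of 0.0639 without the t0 library of line 7, 0.0895 without the t48 library of line 6, 0.0719 without line 6 and 0.0733 without line 16, and it was lost without the filter on low counts (0.0601). Txnip differed by 0.70 (SE 0.29, adjusted p = 0.104) and Arrdc3 by -0.59 (SE 0.28, adjusted p = 0.157). With the cell line as a block, 3 of 5 were called against 39.8% of all genes: Txnip rose by 0.72 on the log2 scale (edgeR adjusted p = 2.07e-07), Arrdc4 rose by 0.79 (1.16e-05) and Arrdc3 fell by 0.58 (8.42e-05). Leaving out each NLS line kept these 3 calls. The ratios of t48 to t0 behind them were 1.60, 1.86 and 1.52 for Txnip, 1.84, 1.96 and 1.44 for Arrdc4, and 0.818, 0.561 and 0.668 for Arrdc3, in lines 6, 7 and 16.

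Between NLS t6 and NLS t0 none of the 5 alpha-arrestins was called by the edgeR fit of group means, against 20.8% of all genes, and none had an unadjusted p under 0.05; DESeq2 called none either. Arrdc3 differed by 0.41 (SE 0.27, adjusted p = 0.336), Arrdc4 by -0.34 (SE 0.23, adjusted p = 0.348), Arrdc2 by -0.35 (SE 0.17, adjusted p = 0.178) and Txnip by -0.25 (SE 0.29, adjusted p = 0.601). With the block 3 of 5 were called, against 34.7% of all genes: Arrdc3 rose by 0.44 (edgeR adjusted p = 0.00075), Arrdc4 fell by 0.35 (0.0235) and Txnip fell by 0.25 (0.00959). Without line 16 the blocked calls of Txnip (edgeR adjusted p = 0.189) and Arrdc4 (0.289) were lost, and 1 of the 5 remained called. That line had the lowest t6 to t0 ratio of both genes, 0.742 for Txnip and 0.642 for Arrdc4, where lines 6 and 7 had 0.893 and 0.897 for Txnip and 0.909 and 0.828 for Arrdc4. For Arrdc3 the t6 to t0 ratios of lines 6, 7 and 16 were 1.53, 1.14 and 1.47.

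**Figure D2:**
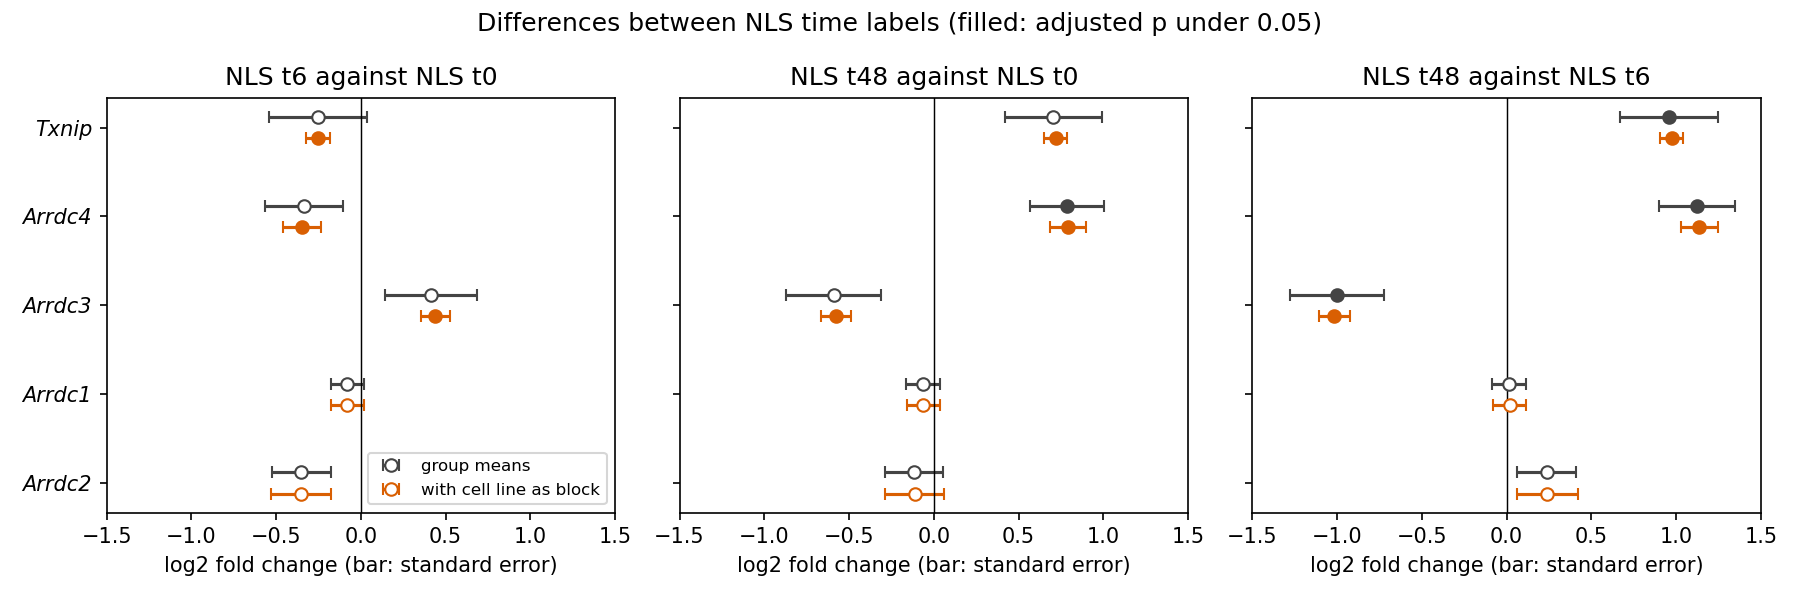
Log2 fold change with its standard error (horizontal axis) of the 5 alpha-arrestins between NLS time labels, in the fit of group means (grey) and in the fit with cell line as a block (orange), with filled points for an adjusted p under 0.05. The point estimates nearly coincide in both fits, while the bars of Txnip, Arrdc4 and Arrdc3 are shorter with the block.

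The libraries labelled LacZ were compared in the same way. Given the Adcy10 levels, a difference between libraries labelled NLS and LacZ cannot be read as one between cells with and without induced Adcy10. Between LacZ t48 and LacZ t0 none of the 5 alpha-arrestins was called by edgeR or DESeq2 and 0 had an unadjusted p under 0.05, against 18.5% of all genes called. Arrdc4 differed by 0.56 (SE 0.30, edgeR adjusted p = 0.220), Arrdc3 by 0.28 (adjusted p = 0.630), Arrdc1 by 0.21 (adjusted p = 0.246) and Txnip by -0.21 (SE 0.38, adjusted p = 0.756). With the cell line as a block Arrdc4 was called (edgeR adjusted p = 0.00753), 1 of 5 against 33% of all genes, and that call was lost without either LacZ line (0.0608 and 0.104).

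The difference between the responses of the NLS and the LacZ lines at t48 was tested as an interaction. In the edgeR fit of group means no alpha-arrestin was called and 0 had an unadjusted p under 0.05, against 23.3% of all genes called; DESeq2 called none either. Txnip had an interaction of 0.91 (SE 0.47, edgeR adjusted p = 0.201) and Arrdc3 one of -0.87 (SE 0.44, adjusted p = 0.192). With the cell line as a block 2 of 5 were called against 37.4% of all genes, Txnip (edgeR adjusted p = 1.25e-05) and Arrdc3 (0.000182), and both calls held when each of the 5 lines was left out in turn. Those fits, among them the one without line 16 with its little Adcy10, gave 0.74 to 1.03 for Txnip (edgeR adjusted p from 3.33e-05 to 0.00236) and -1.01 to -0.70 for Arrdc3 (3.04e-05 to 0.00415). In the fit of group means single libraries moved both values by over 1.5 times: the Txnip interaction was 0.48 without the t0 library of LacZ line 10, and that of Arrdc3 was -0.54 without the t0 library of NLS line 7. The Arrdc4 interaction was 0.24 with the block (edgeR adjusted p = 0.335) and was not called, and its t48 to t0 ratio ranged from 1.44 to 1.96 in the NLS lines beside 1.46 and 1.48 in the LacZ lines.

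Before doxycycline, NLS t0 and LacZ t0 differed in 43.5% of all genes but in none of the 5 alpha-arrestins by edgeR with TMM, where 1 had an unadjusted p under 0.05. DESeq2 called 1, Arrdc4. Txnip averaged 41.3 ± 11.1 CPM (SD, n = 3) in NLS t0 and 24.5 ± 9.02 CPM (SD, n = 2) in LacZ t0, a log2 difference of 0.76 (edgeR adjusted p = 0.101). Arrdc4 averaged 8.85 ± 1.92 CPM (SD, n = 3) and 5.43 ± 1.19 CPM (SD, n = 2), a log2 difference of 0.70 (edgeR adjusted p = 0.0517). Without the t0 library of line 7 both were called (edgeR adjusted p = 0.0455 and 0.0175), and without line 16 Arrdc3 was (0.0339). Both differences depended on which LacZ library was kept. With only line 10 left in LacZ t0 the log2 difference fell to 0.42 for Txnip and 0.49 for Arrdc4. With only line 12 left both differences were larger. In the fit with line effects Txnip, Arrdc4 and Arrdc3 were called (edgeR adjusted p = 5.78e-07, 0.000244 and 0.0155) against 54.3% of all genes, but a line belongs to 1 construct, so those p-values measure the spread within lines and not between them. The Arrdc3 call of that fit was lost without line 7, where the log2 difference went from 0.31 to 0.02 (edgeR adjusted p = 0.878), and without line 10 (0.217).

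The NLS lines differed from each other in Txnip by a similar amount at each time label. Line 7 was the lowest of the 3 lines throughout, with a ratio to line 6 of 0.589 at t0, 0.592 at t6 and 0.684 at t48. Lines 6 and 16 lay close together, with ratios of line 6 to line 16 of 1.03, 1.24 and 1.09. Adcy10 was high in lines 6 and 7 and near 1 CPM in line 16. In line 16 Txnip was close to its level in line 6, while Arrdc3 was the lowest of the 3 lines at each time label. A part of Adcy10 in the line differences was not tested. Each line contrast below rests on 3 libraries a line, 1 at each time label, and compares these lines only.

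Between line 7 and line 6, 3 of the 5 alpha-arrestins were called against 11.1% of all genes. Txnip was lower in line 7 by a log2 fold change of -0.68 (SE 0.07, edgeR adjusted p = 1.22e-05), Arrdc4 was lower by -0.60 (SE 0.11, adjusted p = 0.00174) and Arrdc3 was higher by 0.33 (SE 0.09, adjusted p = 0.0212). Txnip and Arrdc4 stayed called in all 6 leave-out fits, whereas 3 of 6 lost Arrdc3 (edgeR adjusted p up to 0.218), as did DESeq2 (0.0992). The Arrdc3 ratio of line 7 to line 6 was 1.55 at t0, 1.17 at t6 and 1.07 at t48.

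Between line 7 and line 16, 2 of 5 were called against 22.6% of all genes. Txnip was lower in line 7 by -0.53 on the log2 scale (SE 0.07, edgeR adjusted p = 4.78e-05) and Arrdc3 was higher by 0.80 (SE 0.09, adjusted p = 1.02e-05). Both stayed called in all 6 leave-out fits. Arrdc4 differed by -0.30 (adjusted p = 0.0618). Between line 6 and line 16, 1 of 5 was called against 2.26% of all genes: Arrdc3 was higher in line 6 by 0.48 (SE 0.09, edgeR adjusted p = 0.00714), with ratios of 1.29, 1.35 and 1.58 at t0, t6 and t48. Of 6 leave-out fits 4 lost that call, with edgeR adjusted p up to 0.0832 without the t0 library of line 16. Txnip differed there by 0.15 (adjusted p = 0.299) and Arrdc4 by 0.30 (adjusted p = 0.168).

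**Figure D3:**
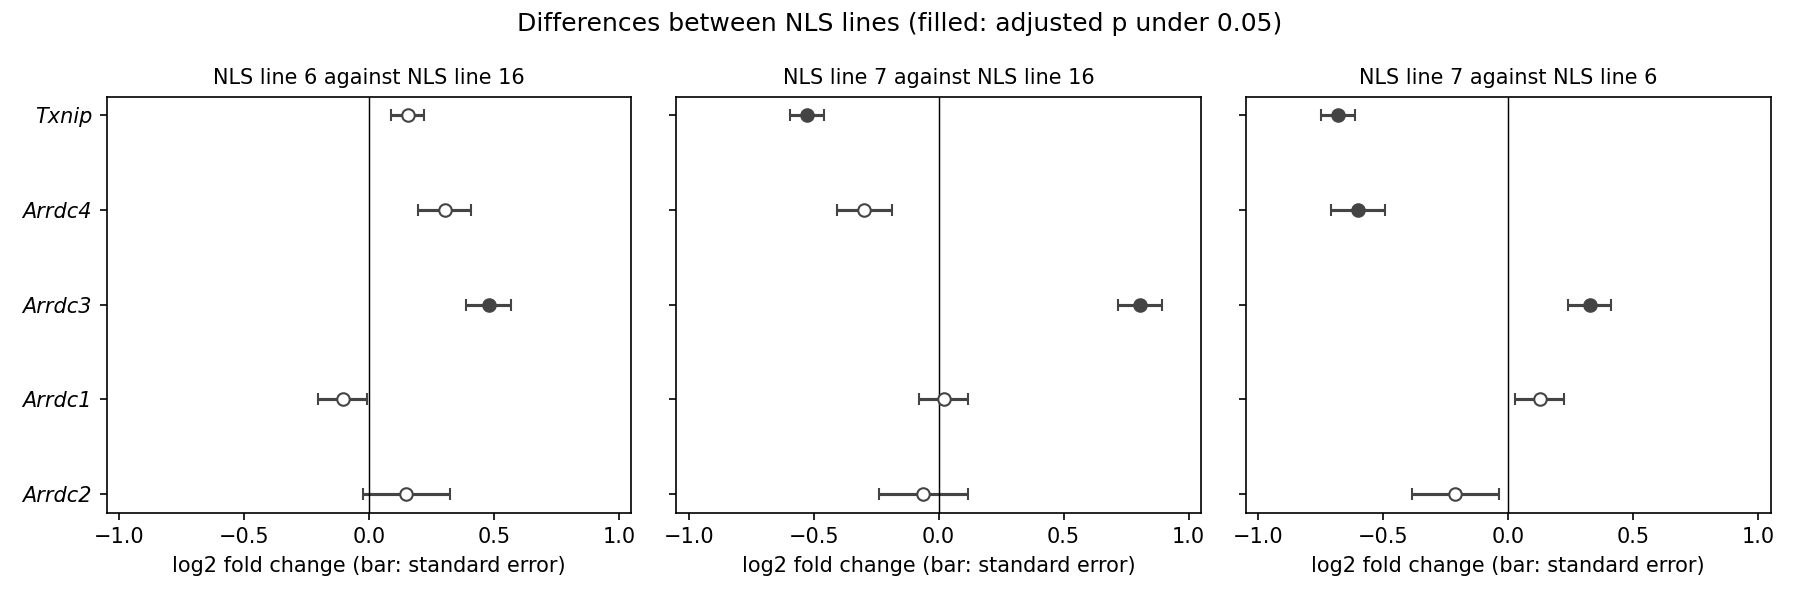
Log2 fold change with its standard error (horizontal axis) of the 5 alpha-arrestins between the NLS lines, time label as a term, with filled points for an adjusted p under 0.05. Txnip is lower in line 7 than in both other lines, by 0.53 to 0.68 on the log2 scale, and Arrdc3 is higher in line 7 and in line 6 than in line 16.

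The LacZ lines also differed in Txnip, and that difference selected it. The ratio of line 12 to line 10 was 0.587 at t0 and 0.718 at t48. Across all genes, 4 of 13044 (0.0307%) were called lower in line 12, and as the same contrast picked Txnip nothing is read from this share. Arrdc4 lay lower in line 12 as well, at ratios of 0.732 and 0.722, and Arrdc3 lay higher, at 1.16 and 1.14. Among the NLS lines, which the choice of Txnip did not use, line 7 had the lowest Txnip, the lowest Arrdc4 and the highest Arrdc3 at each time label.

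Over the 13 libraries the Txnip and Arrdc4 levels (log2 CPM) had a Pearson r of 0.879 and a Spearman rho of 0.797, and 0.514% of all genes tested had an r with Txnip at least as high. Centred within each line, r was 0.865. Txnip and Arrdc3 had an r of -0.496 over libraries and -0.955 after centring within lines. Txnip and Arrdc1 had an r of -0.614, which was -0.02 after centring. The libraries share lines and time labels, and they include the LacZ libraries whose difference chose Txnip. These values thus describe the 13 libraries, carry no p and are not separate from that choice.

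**Figure D4:**
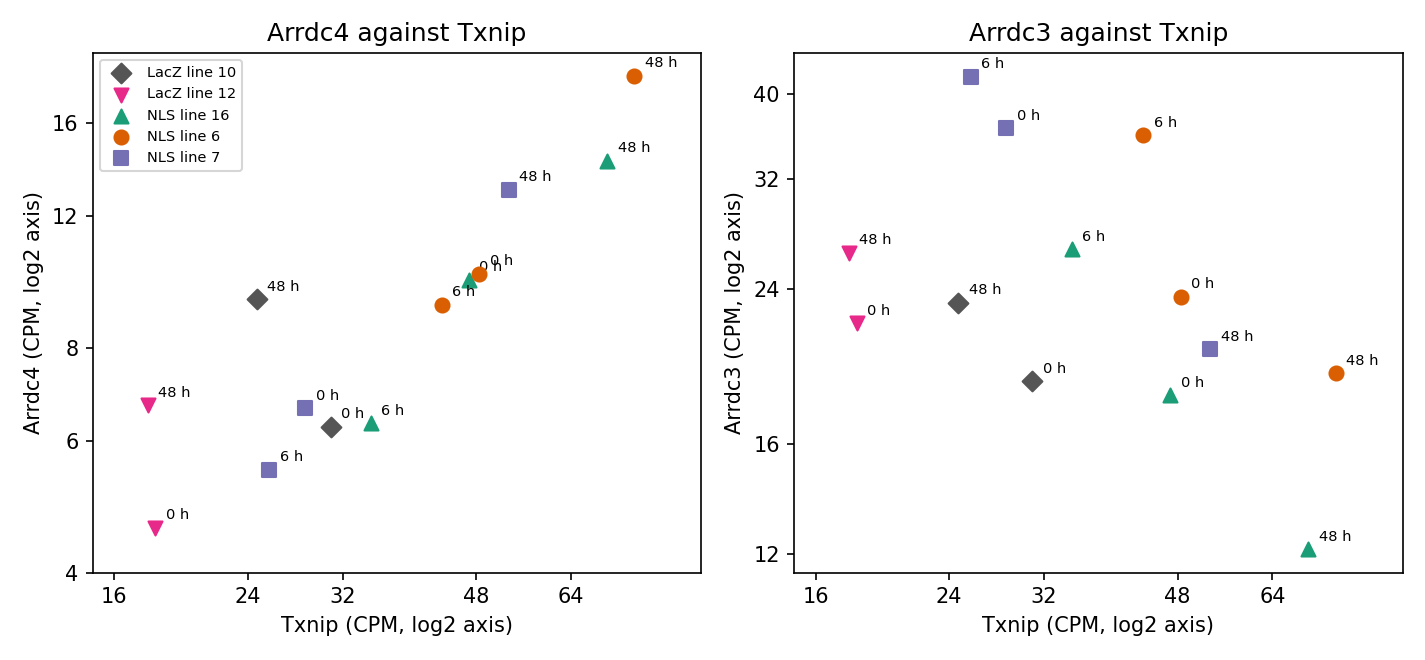
Arrdc4 (left) and Arrdc3 (right) against Txnip, in CPM on log2 axes, for 13 libraries with a colour and symbol for each cell line and the hours of doxycycline beside each point. Arrdc4 is high where Txnip is high, with r = 0.879, and within each NLS line Arrdc3 is lowest in the 48 h library, where Txnip is highest.

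The genes whose pattern over the 13 libraries was most like that of Txnip by Pearson r were Kcnma1 (0.951), Prr5l (0.933), Ccdc134 (0.930), Ppp1r10 (0.927) and Bmper (0.923). Kcnma1 lay at 0.197 to 0.841 CPM, near the limit of detection. By Spearman rho 1 of these 5 remained among the 5 most like, and after centring within lines none did. The LacZ libraries that chose Txnip are part of these ranks too. For Arrdc4 the most similar genes were Ttc17 (0.939) and Angpt4 (0.925), for Arrdc3 Xiap (0.940) and Tut7 (0.934), for Arrdc1 Tuft1 (0.934) and Kdm3a (0.909), and for Arrdc2 Gmppb (0.830) and Fcgr4 (0.808).

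Genes that act with alpha-arrestins were read from the same edgeR fits. Their counts stand beside all 13044 genes, of which 1932 were higher and 1470 lower (26.1% called) for NLS t48 against t0, 1904 and 1769 (28.2%) for NLS t48 against t6, 1512 and 1204 (20.8%) for NLS t6 against t0, 1132 and 1287 (18.5%) for LacZ t48 against t0, and 769 and 677 (11.1%) for line 7 against line 6. In the thioredoxin system, whose founding member Txnip binds and inhibits, 2 of 15 tested genes rose and 7 fell between NLS t48 and NLS t0, with a median log2 fold change of -0.18 beside -0.01 for all genes, of which 26.1% were called. Txn1, which encodes cytosolic thioredoxin, fell by 0.33 (edgeR adjusted p = 0.000419), and Nxn, nucleoredoxin, rose by 0.37 (9.86e-05). At NLS t6 against NLS t0, 1 of 15 rose and 6 fell, with Glrx, glutaredoxin, higher by 0.35 (edgeR adjusted p = 0.00459). In the LacZ lines 3 of 15 rose at t48 and none fell, with Srxn1, sulfiredoxin, higher by 0.54 (edgeR adjusted p = 0.00338).

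Of the listed Mondo-Mlx factors and genes related to them, 2 of 6 tested genes rose between NLS t48 and NLS t0, against 26.1% of all genes called in either direction. They were Mga (0.25, edgeR adjusted p = 0.0351) and Mnt (0.23, 0.0436). Between NLS t48 and NLS t6, Mxd4, an Mlx-binding repressor, rose by 0.65 (edgeR adjusted p = 0.000224) and Mlx fell by 0.30 (0.00864). Mlxip, which encodes MondoA, was not called in either comparison and fell by 0.41 in LacZ t48 against LacZ t0 (edgeR adjusted p = 0.00209). Of 8 tested carbohydrate-response genes, 1 rose and 4 fell between NLS t48 and NLS t6, with a median of -0.17 beside 0.00 for all genes, of which 28.2% were called. The gene that rose was Hk2, hexokinase II, by 0.60 (edgeR adjusted p = 1.53e-05), and Acly, ATP citrate lyase, fell by 0.43 (5.13e-05). In the LacZ lines 3 of 8 rose at t48 and none fell, among them G6pdx by 0.48 (edgeR adjusted p = 0.000392) and Hk2 by 0.52 (0.000762).

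Of the NEDD4-family ligases and adaptors, 2 of 10 tested genes rose and 1 fell between NLS t48 and NLS t0, a share near the 26.1% of all genes. Smurf2 rose by 0.26 (edgeR adjusted p = 0.00328) and Wwp1 fell by 0.45 (0.0027). Between line 7 and line 6, 1 of 10 was called against 11.1% of all genes, Wwp2, which was lower by -0.29 (edgeR adjusted p = 0.000857). Among the cargo and glucose uptake genes, 2 of 11 rose and none fell between NLS t48 and NLS t6, namely Hk2 and Slc2a3, a glucose transporter, which rose by 0.79 (edgeR adjusted p = 0.000121). In the LacZ lines 5 of 11 cargo genes rose at t48 and none fell, against 18.5% of all genes called, among them Egfr, the epidermal growth factor receptor, by 0.70 (edgeR adjusted p = 0.000315). Slc2a1, the transporter that Txnip acts on, was among these 5 and rose by 0.57 (edgeR adjusted p = 0.00242); it is named for that role after its values were seen. Of 10 ESCRT genes, which work with Arrdc1, none rose and 2 fell between NLS t48 and NLS t6, Vps37b by 0.65 (edgeR adjusted p = 0.000813) and Pdcd6ip by 0.22 (0.00157).

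Of 13 FOXO factors and FOXO-responsive genes, 3 rose and 1 fell between NLS t48 and NLS t6, with a median of 0.15, a share near the 28.2% of all genes. Klf15, a transcription factor, rose by 2.11 (edgeR adjusted p = 0.000918) and Foxo1 itself fell by 0.44 (0.00259). Klf15 lay near the limit of detection, at 0.207 to 0.328 CPM in NLS t6 and 0.989 to 1.27 CPM in NLS t48. It passed the filter on low counts mainly through NLS t48, so its call is not independent of that rise. Between line 7 and line 6, 2 of 13 were higher and none lower against 11.1% of all genes called, Sesn3 by 0.44 (edgeR adjusted p = 0.000159) and Ccng2 by 0.53 (0.00814). Of the 7 other arrestin-fold genes tested, 1 rose and 2 fell between NLS t48 and NLS t6. Arrb1, which encodes a beta-arrestin, fell by 0.62 (edgeR adjusted p = 2.89e-05) and Vps26a, a retromer subunit, by 0.28 (0.00246). Of 7 AMPK subunit genes, 1 rose and 2 fell there, and of 2 tested inflammasome genes none was called there. Between NLS t48 and NLS t0 Casp1 rose by 1.81 (edgeR adjusted p = 0.00834), with 0.310 to 1.18 CPM at t0 and 1.91 to 3.07 CPM at t48. Casp1 was at 0 CPM in the LacZ lines, and Nlrp3, Pycard and Il1b did not exceed 0.111 CPM in any library.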

How the data were processed

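Per the labels' protocols, Trizol-extracted RNA went into a stranded paired-end Truseq mRNA kit. Per the submitters' processing notes, the authors used Salmon 1.2.0 and the GRCm38 build; the sources used here do not give its transcript set or settings. The deposited tables hold estimated counts, TPM and effective lengths per transcript. Salmon divides reads among transcripts by a model, so transcript shares are less certain than gene sums.

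Of 116546 transcripts, 115977 (99.51%) matched the GENCODE vM21 annotation. Estimated counts were summed per gene and rounded; unmatched transcripts held 0.121 to 0.165% of reads. Genes were tested with edgeR 4.0.16 in R 4.3.3 (TMM, the filter on low counts, robust quasi-likelihood test, 5 group means, 13044 genes, Benjamini-Hochberg over all). Line contrasts added line effects within each construct. The named genes were the 5 members, up to 2 called members of each list with the smallest p, and the 5 genes most like Txnip or 2 most like each other member. The members and the 11 lists were chosen with earlier results of these data known. DESeq2 1.42.0, its size factors, no filter, only the groups compared, the cell line as a block and leaving out libraries or lines were tried. Promoter sequences came from RefSeq (GRCm38.p6), where all 5 members matched.

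Cell line numbers in the labels mark the same line, which pairs the libraries. Across genes, deviations from group means correlated at 0.025 to 0.282 over 9 pairs of NLS libraries of the same line and at -0.263 to 0.0524 over 18 pairs of different lines. LacZ pairs of the same line gave -0.0201 and those of different lines 0.0201. Deviations within a group cancel, so the LacZ values are mirror images and the NLS values are bound to each other. The LacZ values do not show pairing by line, which rests there on the labels. Libraries of a group all differed by more than sampling noise (chi-square over its degrees of freedom at least 6.94). The scripts were tested on simulated data.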

Additional observations from a re-analysis of the deposited data

Results flagged for a closer look

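The Txnip response at t48 differed between the constructs by 0.91 on the log2 scale, because all 3 NLS lines were higher at t48 than at t0 (ratios 1.60, 1.86 and 1.52) while both LacZ lines were lower (0.799 and 0.977). The test of this difference did not pass in the edgeR fit of group means (adjusted p = 0.201) and did pass once cell line was a block (edgeR adjusted p = 1.25e-05). Leaving out a library or line in the fit of group means gave 0.48, without the t0 library of LacZ line 10, to 1.25, without that of LacZ line 12.

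The Arrdc3 response at t48 differed by -0.87 on the log2 scale, with all 3 NLS lines lower at t48 (ratios 0.818, 0.561 and 0.668) and both LacZ lines higher (1.23 and 1.202). The edgeR adjusted p was 0.192 in the fit of group means and 0.000182 with the block. Leaving out a library or line gave -1.07, without the t0 library of NLS line 16, to -0.54, without that of NLS line 7. Adcy10 was near absent in NLS line 16 at every time. The summed fibroblast and mesenchyme markers, mostly collagens, were highest in NLS t48 and their part in either result was not tested.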

How the results depend on the processing

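The calls of Arrdc4 between NLS t48 and NLS t6, of Txnip and Arrdc3 between lines 7 and 16, and of Txnip and Arrdc4 between lines 7 and 6 kept their direction and side of the threshold under the alternatives run. Arrdc2 is limited by its depth (46 to 91 reads a library) and by the unsteady split of its reads among transcripts, and 2 LacZ lines limit every comparison with them. The causes of the changes below were not tested.

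With the cell line as a block, which follows the pairing of libraries by line, 4527 genes were called for NLS t6 against t0, 5188 for NLS t48 against t0, 4308 for LacZ t48 against t0 and 4875 for the interaction, where the fit without it gave 2716, 3402, 2419 and 3045. The alpha-arrestins called with the block were 3 for NLS t6 against t0, 3 for NLS t48 against t0, 1 for LacZ t48 against t0, 2 for the interaction and 3 for NLS t0 against LacZ t0. The block left the 3 alpha-arrestins called between NLS t48 and t6 called. Blocked fits without 1 line, chosen after seeing the data, called 1 to 3 alpha-arrestins for NLS t6 against t0 and 0 for LacZ t48 against t0. For NLS t0 against LacZ t0 they lost Arrdc3 without line 7 or line 10.

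Without the filter on low counts 0 alpha-arrestins were called for NLS t48 against t0 and 1 for NLS t48 against t6. DESeq2 called 1533 genes between lines 7 and 16 and 761 between lines 7 and 6, where edgeR called 2950 and 1446. For NLS t0 against LacZ t0, 1 alpha-arrestin, Arrdc4, was called with DESeq2, with its size factors in edgeR and with only the groups compared.

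Leaving out a library or line gave 994 to 2817 genes for NLS t6 against t0. It gave 1592 to 3076 genes and 0 to 1 alpha-arrestins for NLS t48 against t0, and 2034 to 3333 genes and 1 to 3 alpha-arrestins for NLS t48 against t6. LacZ t48 against t0 had 522 to 1290 genes, and the interaction had 1272 to 3176 genes and 0 to 1 alpha-arrestins, the 1 being Arrdc3 without line 16. NLS t0 against LacZ t0 had 0 to 2 alpha-arrestins. Lines 6 and 16 differed in 113 to 583 genes and 0 to 1 alpha-arrestins, lines 7 and 16 in 1503 to 2474 genes, and lines 7 and 6 in 596 to 1279 genes.

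Directions that turned belonged to uncalled log2 differences, the largest in size being 0.23 for the Arrdc4 interaction and -0.21 for Txnip in LacZ t48 against t0. For Arrdc1 the leave-out fits ranged from -0.20 to 0.027 in NLS t6 against t0, from -0.12 to 0.00034 in NLS t48 against t0, from -0.035 to 0.11 in NLS t48 against t6 and from -0.078 to 0.11 between lines 7 and 16. For Arrdc2 they ranged from -0.22 to 0.015 in NLS t48 against t0, from -0.0030 to 0.26 in LacZ t48 against t0, from -0.033 to 0.30 between lines 6 and 16 and from -0.25 to 0.081 between lines 7 and 16. Txnip ranged from -0.55 to 0.22 in LacZ t48 against t0, and the Arrdc4 interaction from -0.010 to 0.47.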
